A study of Mus musculus with 6 samples.

Results

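The genes described here are 10 transcription factors that set up and maintain the trophoblast lineage in mouse, *Tead4*, *Cdx2*, *Gata3*, *Gata2*, *Eomes*, *Elf5*, *Tfap2c*, *Ets2*, *Hand1* and *Ascl2*. They were chosen by name as known regulators of this lineage, with earlier results of these data known, and they are 10 of the 22380 genes listed for each library. RNA was measured in 3 *Ctrl* and 3 *Tet iTKO* mouse embryonic stem cell (mESC) lines, each line from a different blastocyst. All 6 lines were CreERT2 wt/ki and carried the reporter allele Gt(ROSA)26Sor<tm1Ytchn>/J as wt/ki, which gives H2B-EGFP in cells where CreERT2 has cut, and the *Tet iTKO* lines were also *Tet1* fl/fl, *Tet2* fl/fl and *Tet3* fl/fl. Both groups were grown on feeder fibroblasts in 2i medium with LIF, were given 1 µM 4-OHT, which switches on CreERT2, for 2.5 days, and were kept without it for 4 more days. At day 6.5 live cells that were GFP+, CD326+ (EpCAM, an epithelial surface protein that mESC carry) and Thy1.2- (Thy1 marks the feeder cells) were sorted. The paper's figure legend for these libraries also lists SSEA1+, another surface marker. The sorted cells were used for Smart-Seq2, which copies full-length poly(A+) RNA. The *Ctrl* lines lack the floxed alleles, so the groups differ in the parents of the lines as well as in TET loss, and each line is 1 culture from 1 embryo.

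Trophectoderm is the outer layer of the blastocyst and the first cell type to separate from the embryo proper. TEAD4, with its coactivator YAP1, turns on *Cdx2* and *Gata3* in the outer cells, while OCT4 and NANOG hold the inner cells pluripotent. *Cdx2*, *Eomes*, *Elf5* and *Tfap2c* then keep trophoblast stem cells dividing in response to FGF4, and *Hand1* and *Ascl2* act in the placental cells that arise from them. The promoter of *Elf5* is methylated in embryonic stem cells and unmethylated in trophoblast stem cells, which is why the gene is known as a gatekeeper between both lineages. TET enzymes oxidise 5-methylcytosine at CpG, the step that these lines lack after deletion.

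The RefSeq promoter table of GRCm38.p6 matched 7 of the 10 genes, all but *Tfap2c*, *Hand1* and *Tead4*. The 250 bases before the transcription start are printed for 4 genes that were near 0 or low in *Ctrl* mESC, 5′ to 3′ along the gene, with each CpG, the dinucleotide on which TET enzymes act, in capitals. No methylation was measured here.

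*Cdx2*, chr5:147307250-147307499, minus strand: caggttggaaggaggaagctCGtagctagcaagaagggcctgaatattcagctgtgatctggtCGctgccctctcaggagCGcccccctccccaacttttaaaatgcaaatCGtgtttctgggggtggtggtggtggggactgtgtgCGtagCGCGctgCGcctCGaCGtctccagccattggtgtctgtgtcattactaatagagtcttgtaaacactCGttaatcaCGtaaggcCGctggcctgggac

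*Elf5*, chr2:103423818-103424067, plus strand: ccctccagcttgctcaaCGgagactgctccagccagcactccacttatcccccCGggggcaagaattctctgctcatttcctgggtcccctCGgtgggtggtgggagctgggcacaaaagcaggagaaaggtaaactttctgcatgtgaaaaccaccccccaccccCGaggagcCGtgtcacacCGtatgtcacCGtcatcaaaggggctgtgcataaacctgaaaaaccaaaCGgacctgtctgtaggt

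*Eomes*, chr9:118477939-118478188, plus strand: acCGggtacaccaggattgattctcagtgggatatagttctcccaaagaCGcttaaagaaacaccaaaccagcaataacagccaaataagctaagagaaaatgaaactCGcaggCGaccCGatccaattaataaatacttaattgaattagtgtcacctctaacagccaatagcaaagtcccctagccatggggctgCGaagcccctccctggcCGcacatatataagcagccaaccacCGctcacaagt

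*Gata2*, chr6:88193641-88193890, plus strand: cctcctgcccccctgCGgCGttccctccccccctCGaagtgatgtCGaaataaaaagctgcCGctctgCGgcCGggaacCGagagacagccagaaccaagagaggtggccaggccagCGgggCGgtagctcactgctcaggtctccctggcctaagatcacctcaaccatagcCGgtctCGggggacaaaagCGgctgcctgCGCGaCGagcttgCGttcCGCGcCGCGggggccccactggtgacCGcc

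The windows differed in CpG number. The *Gata2* window held 22 CpG, a number that 14.8% of the 32851 promoters of this length reach, and the *Ascl2* window held 19, reached by 19.7%. The *Cdx2* window held 13 (31.5%), and those of *Elf5* and *Eomes* 8 each (43.0%), against a median of 6 over all promoters. The letters GGAATG, which TEAD proteins bind, were found on neither strand of the 4 printed windows and in 12.6% of all promoters. The letters AGATAA (bound by GATA factors, 9.99% of promoters) and CCGGAA (bound by ETS factors, 12.03%) were absent from the 4 windows as well. The *Gata3* window held 19 CpG and 1 CCGGAA, and the *Ets2* window held 25 CpG (10.7%), the most among these genes. The *Gata3* and *Ets2* windows lay wholly inside annotated exons. Second listed starts, whose windows were also inside exons, held 2 CpG at *Elf5* and 24 at *Gata2*, each with 1 match to the TEAD letters.

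The deposited values are read counts divided by the size factor of the library and rounded, called normalized counts here. They summed to between 3964824 and 4219665 per library, with 13431 to 13539 genes above 0 in *Ctrl* and 14024 to 14363 in *Tet iTKO*. Values of 3 or less in a library were taken as the floor of what can be read. Over the whole gene, which includes exons that are not deleted, *Tet1* ranged from 682 to 716 in *Ctrl* and 753 to 895 in *Tet iTKO*, *Tet2* from 170 to 249 and 211 to 268, and *Tet3* from 13 to 28 and 3 to 10, so these values do not check the deletion. *Pou5f1*, which encodes OCT4 and marks mESC, ranged from 5208 to 5804 in *Ctrl* and from 4318 to 4775 in *Tet iTKO*.

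Most reads on the 10 trophoblast factors were on *Tfap2c* in both groups. Before any division by length, this gene made up 79.6%, 78.2% and 75.3% of the summed normalized counts of the 10 genes in *Ctrl* against 72.5%, 70.2% and 74.2% in *Tet iTKO*. In *Ctrl*, 3 of the 10 genes, *Cdx2*, *Elf5* and *Hand1*, were listed at 0 in every line. With a mean of at least 10 normalized counts over the 6 lines as the filter, 5 genes were tested and 5 were not. Of those 5 tested, *Tfap2c* fell at an adjusted p under 0.05 (limma, Benjamini-Hochberg over 10524 genes) and 0 rose. At an unadjusted p under 0.05, 2 were higher, *Eomes* and *Ets2*, and 1 was lower, *Tfap2c*, against 21.4% and 22.3% of all genes tested. Among all genes tested, 16.4% rose and 18.4% fell, and 6.25% passed with a log2 change of at least 1 either way, which 0 of the 5 did. In bulk RNA, fewer cells with a transcript and less RNA per cell cannot be told apart. The plot of every line shows these values.

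**Figure D1:**
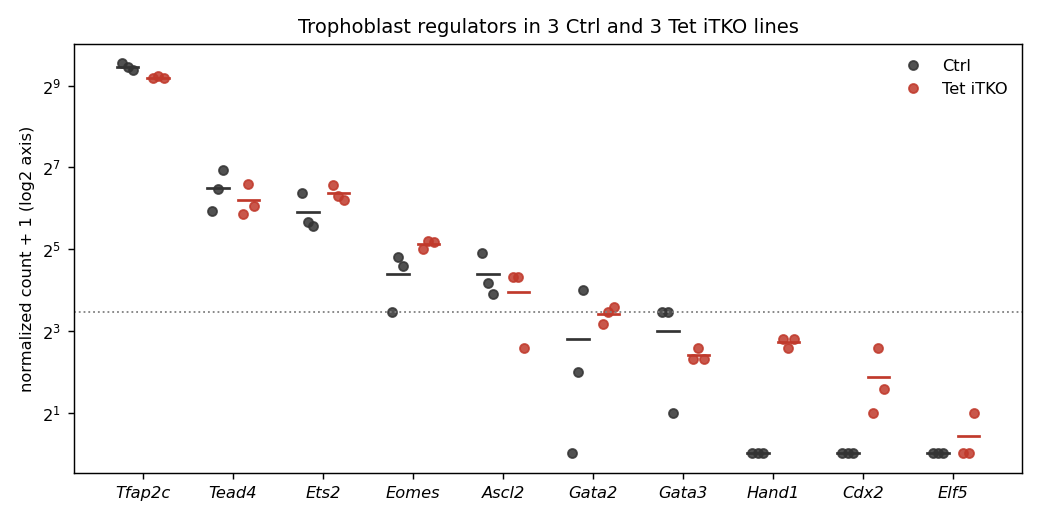
Normalized count plus 1 of each trophoblast regulator on a log2 axis, with 1 point per line in *Ctrl* (black) and *Tet iTKO* (red) and a bar at the mean. The dotted line marks the filter at a mean of 10. *Tfap2c* lies far above the other 9 genes, and the *Hand1* values are 0 in *Ctrl* and 5 or 6 in *Tet iTKO*.

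*Tead4*, the first of these factors to act (ENSMUSG00000030353.9, chromosome 6 of GRCm38 from 128224288 to 128300823, minus strand), gave normalized counts of 60, 88 and 122 in *Ctrl* against 57, 96 and 65 in *Tet iTKO*. The lines of the groups overlapped. The log2 fold change, which here always compares *Tet iTKO* with *Ctrl* on log2(normalized count + 1), was -0.28 (standard error, SE, 0.24, limma adjusted p = 0.38, 95% interval -0.76 to 0.20). It ranged from -0.54 to -0.04 as each line was left out, the value nearest to 0 being that without *Ctrl* replicate 3. Correcting for the GC content and length of transcripts moved it to -0.52 (limma adjusted p = 0.093), and the same correction fitted by least squares, chosen after seeing the data, gave a fall of -0.66 (limma adjusted p = 0.026).

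*Cdx2*, the homeobox factor of the trophectoderm (ENSMUSG00000029646.3, chromosome 5 of GRCm38 from 147300805 to 147307270, minus strand), was listed at 0 in all *Ctrl* lines and at 1, 5 and 2 across the *Tet iTKO* lines. All *Tet iTKO* lines lay above all *Ctrl* lines, but 2 of the 3 were at or under the floor of 3, so no fold is given. *Gata3*, a zinc finger factor that acts beside CDX2 (ENSMUSG00000015619.9, chromosome 2 of GRCm38 from 9857078 to 9890034, minus strand), was at 10, 10 and 1 normalized counts in *Ctrl* against 4, 5 and 4 in *Tet iTKO*. These lines overlapped, and the spread of the *Ctrl* lines (7 ± 5.20, SD, n = 3) covered the *Tet iTKO* mean of 4.33 ± 0.58 (SD, n = 3). Both annotated genes that overlap *Gata3* and are listed, 4930412O13Rik and 9230102O04Rik, were at 0 in all 6 lines. *Gata2* (ENSMUSG00000015053.8, chromosome 6 of GRCm38 from 88193891 to 88207032, plus strand), which shares targets with GATA3 in trophoblast, had 0, 3 and 15 in *Ctrl* against 8, 10 and 11 in *Tet iTKO*. Its *Ctrl* lines held both the lowest and the highest value of the 6.

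*Eomes*, the T-box factor of trophoblast stem cells (ENSMUSG00000032446.8, chromosome 9 of GRCm38 from 118478212 to 118486132, plus strand), gave normalized counts of 10, 27 and 23 in *Ctrl* against 31, 36 and 35 in *Tet iTKO*. All *Tet iTKO* lines lay above all *Ctrl* lines, and *Ctrl* replicate 1 was the lowest by far. The means were 20 ± 8.89 and 34 ± 2.65 (SD, n = 3 each), a log2 fold change of 0.84 (SE 0.39, 95% interval 0.05 to 1.63) that missed the threshold after adjustment (limma adjusted p = 0.091). Leaving out each line gave 0.43 to 1.10, lowest without *Ctrl* replicate 1, and the adjusted p passed 0.05 only without *Ctrl* replicate 2 (limma adjusted p = 0.048).

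*Elf5*, the ETS-family gatekeeper factor (ENSMUSG00000027186.8, chromosome 2 of GRCm38 from 103411688 to 103450989, plus strand), was listed at 0 in 5 of the 6 lines and at 1 in *Tet iTKO* replicate 3. A level under the floor of 3 was not detectable in either group at this depth. *Elf5* had the lowest mean of the 10 genes in *Tet iTKO* mESC.

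*Tfap2c*, an AP-2 factor that acts in trophoblast and also in naive mESC and germ cells (ENSMUSG00000028640.5, chromosome 2 of GRCm38 from 172549593 to 172558622, plus strand), was at 745, 699 and 672 normalized counts in *Ctrl* against 580, 599 and 579 in *Tet iTKO*. All *Tet iTKO* lines lay below all *Ctrl* lines. The means were 705 ± 36.9 and 586 ± 11.3 (SD, n = 3 each), a log2 fold change of -0.27 (SE 0.08, limma adjusted p = 0.0065, 95% interval -0.42 to -0.11). Without each line in turn the log2 fold change was -0.30 to -0.23, called in 6 of 6 fits (limma adjusted p = 0.0067 to 0.039). The call was lost with quantile normalization (-0.18, limma adjusted p = 0.068) and when eBayes was run without its trend (limma adjusted p = 0.065).

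*Ets2*, which acts downstream of FGF signalling in trophoblast (ENSMUSG00000022895.8, chromosome 16 of GRCm38 from 95702075 to 95721051, plus strand), gave normalized counts of 82, 50 and 46 in *Ctrl* against 94, 78 and 72 in *Tet iTKO*. *Ctrl* replicate 1 lay within the range of the *Tet iTKO* lines, and the other two *Ctrl* lines lay below it. The log2 fold change was 0.49 (SE 0.24, limma adjusted p = 0.11, 95% interval 0.01 to 0.97). Without *Ctrl* replicate 1 it was 0.74 (limma adjusted p = 0.022), the only call among the fits that left out a line, which ran from 0.33 to 0.74.

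*Hand1*, a basic helix-loop-helix factor of trophoblast giant cells (ENSMUSG00000037335.7, chromosome 11 of GRCm38 from 57828705 to 57832818, minus strand), was listed at 0 in all *Ctrl* lines and at 6, 5 and 6 across the *Tet iTKO* lines. All *Tet iTKO* lines lay above the floor, and their mean of 5.67 ± 0.58 (SD, n = 3) was at least 1.89-fold higher than the floor of 3 counts per library. With no filter on low values, *Hand1* (limma adjusted p = 0.002) and *Cdx2* (limma adjusted p = 0.033) were among the 9.85% of 16064 genes called higher, but both enter that fit only through the *Tet iTKO* lines, where they are above 0, so these p-values are no support for a rise. Genes at 0 in every *Ctrl* line and above 0 in every *Tet iTKO* line, as these 2 are, made up 1.05% of the same genes (169), and the reverse pattern held for 26.

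*Ascl2*, an imprinted factor expressed from the maternal allele in the spongiotrophoblast (ENSMUSG00000009248.5, chromosome 7 of GRCm38 from 142966829 to 142969264, minus strand), was at 29, 17 and 14 normalized counts in *Ctrl* against 19, 19 and 5 in *Tet iTKO*. The groups overlapped, with a log2 fold change whose 95% interval ran from -1.62 to 0.45 (limma adjusted p = 0.4). The difference rested on *Tet iTKO* replicate 3, without which it was -0.01.

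In all, the lines of both groups did not overlap for 4 of the 10 genes, with *Cdx2*, *Hand1* and *Eomes* higher and *Tfap2c* lower in *Tet iTKO* mESC, and for 2 of the 5 genes tested. Over all genes tested, 44.1% did not overlap.

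Levels were compared between genes as normalized counts per kb of the longest annotated transcript. In *Ctrl*, *Tfap2c* had 236 ± 12.4 (SD, n = 3) per kb, above 89.1% of the genes detected. *Tead4* followed with 29.3 ± 10.1 per kb (above 59.1%), *Ets2* with 15.3 ± 5.07, *Ascl2* with 12.5 ± 4.95 and *Eomes* with 5.62 ± 2.50. The lines of neighbours in this order were apart only between *Tfap2c* and *Tead4* and between *Ascl2* and *Eomes*, so *Ets2* was within the spread of both *Tead4* and *Ascl2*, while the lines of *Tead4* all lay above those of *Ascl2*. *Gata3* at 2.18 ± 1.62 and *Gata2* at 1.68 ± 2.22 per kb did not differ beyond theirs. In *Tet iTKO*, *Tfap2c* stayed first with 196 ± 3.78 per kb, and *Tead4* (23.6 ± 6.70) and *Ets2* (20.9 ± 2.92) overlapped. *Eomes*, with 9.55 ± 0.74 per kb, stood next to *Ascl2* (8.93 ± 5.04), which it overlapped. *Hand1* reached 2.98 ± 0.30 per kb, beside *Gata2* with 2.71 ± 0.43.

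**Figure D2:**
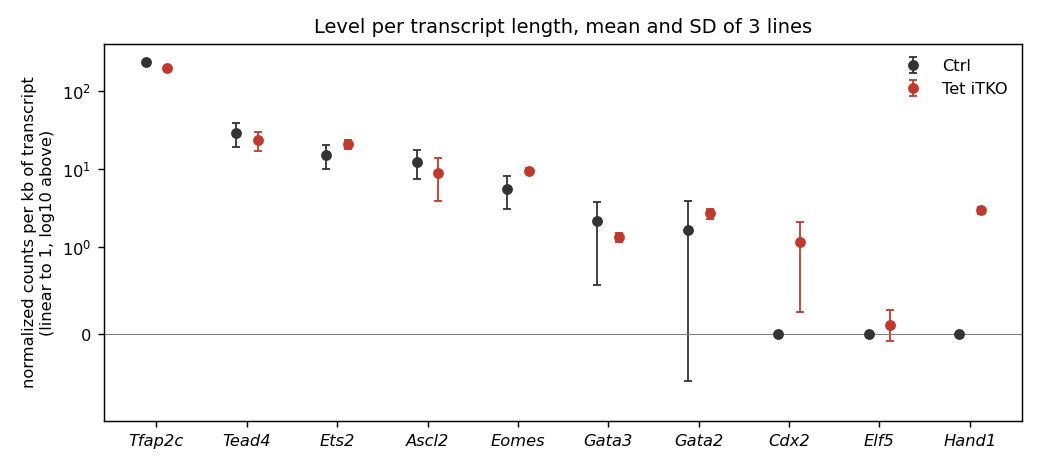
Mean level of each regulator in normalized counts per kb of transcript, with bars of 1 SD over 3 lines, in *Ctrl* (black) and *Tet iTKO* (red). The axis is linear up to 1 and log10 above it. *Tfap2c* is the highest in both groups, at 236 and 196 per kb.

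The genes most like *Tfap2c* over the 6 libraries were *Myl12a* (Pearson r = 0.9995), *Abcg2* (r = 0.9957) and *Trim23* (r = 0.9952) among 7788 genes whose mean was 50 or more. With 6 libraries in 2 groups such values are common, and 900 of these genes had an r over 0.9.

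Relatives of the 10 factors, from the same DNA-binding families, included genes that rose in *Tet iTKO* mESC. Of 23 relatives 9 were tested, and 4 rose while 0 fell, against 16.4% and 18.4% of all genes tested. Their median log2 fold change was 0.50 against 0.01 over all genes tested. *Elf3*, an epithelial ETS factor of the *Elf5* family, gave normalized counts of 228, 219 and 202 in *Ctrl* against 343, 421 and 380 in *Tet iTKO*, a log2 fold change of 0.81 (SE 0.11, limma adjusted p = 2.8e-07). *Cdx1*, the caudal paralog of *Cdx2*, had 163, 185 and 186 in *Ctrl* against 254, 254 and 248 in *Tet iTKO* (0.50, limma adjusted p = 0.0015). Its lines stood apart, as did those of *Elf3*.

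*Gata4*, a GATA factor of primitive endoderm, was at 2, 7 and 10 normalized counts in *Ctrl* against 21, 12 and 27 in *Tet iTKO* (1.64, limma adjusted p = 0.03), and its call was lost in 3 of the 6 fits without a line, *Ctrl* replicate 1 (limma adjusted p = 0.13) and *Tet iTKO* replicates 1 (limma adjusted p = 0.1) and 3 (limma adjusted p = 0.15). It was lost with the GC and length correction too (1.39, limma adjusted p = 0.08), and the gene passed the filter only through its *Tet iTKO* lines. *Tead2*, a TEAD gene expressed early in the embryo, had 1181, 1354 and 1451 in *Ctrl* against 1482, 1470 and 1495 in *Tet iTKO* (0.16, limma adjusted p = 0.048), and of the 6 fits without a line it passed only in that without *Ctrl* replicate 3. With the GC and length correction it turned to -0.11 (limma adjusted p = 0.2). *Tead1* (0.01) and *Tead3* (0.81, limma adjusted p = 0.2) did not pass. *Tfap2e*, an AP-2 gene that was not tested, was at 0 in all *Ctrl* lines and at 16, 8 and 4 in *Tet iTKO*. *Tbx21*, a T-box gene like *Eomes* that was not tested, had 0, 1 and 1 in *Ctrl* against 8, 7 and 5 in *Tet iTKO*. *Cdx1*, *Tead1*, *Tead2*, *Tead3*, *Tbx21* and *Tfap2e* were picked after their values were seen.

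**Figure D3:**
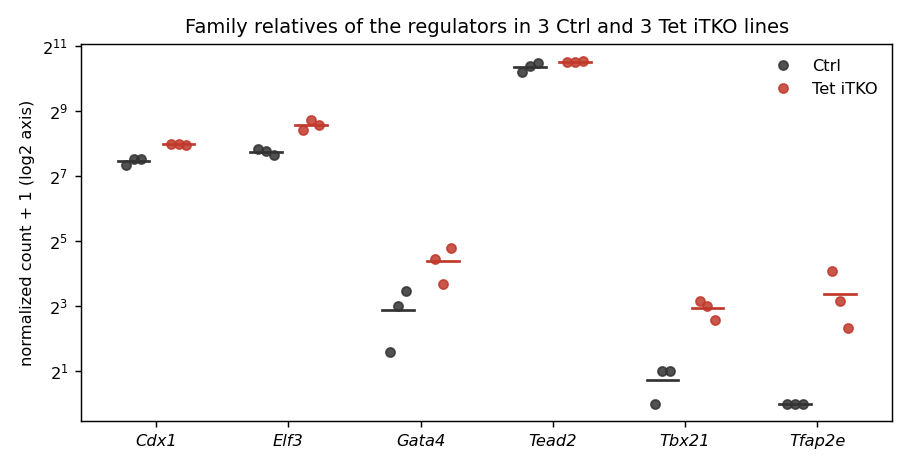
Normalized count plus 1 on a log2 axis of 6 family relatives of the trophoblast regulators, with 1 point per line and a bar at the mean, in *Ctrl* (black) and *Tet iTKO* (red). The lines of each gene stand apart between groups, and *Tfap2e* is at 0 in the *Ctrl* lines.

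Among 22 signals and partners that act with these factors in trophoblast stem cells, 17 were tested, 3 rose and 0 fell. Over all genes tested 16.4% rose and 18.4% fell, so the rises here were near the share of all genes. The median log2 fold change was 0.09. *Furin*, a protease that activates NODAL, gave normalized counts of 45, 37 and 30 in *Ctrl* against 82, 57 and 130 in *Tet iTKO* (1.18, limma adjusted p = 0.00075). *Nodal*, a ligand that sustains trophoblast stem cells, had 331, 341 and 283 in *Ctrl* against 371, 416 and 418 in *Tet iTKO* (0.34, limma adjusted p = 0.0084), and missed the threshold without *Ctrl* replicate 3 (limma adjusted p = 0.067). The lines of both genes were apart. *Esrrb*, an orphan nuclear receptor shared with pluripotency, also passed, but not with the GC and length correction (0.06, limma adjusted p = 0.5). *Fgfr2*, the receptor for FGF4, had 15, 15 and 11 in *Ctrl* against 2, 8 and 9 in *Tet iTKO* (-1.17, limma adjusted p = 0.15). It passed the filter only through its *Ctrl* lines. *Bmp4*, another of these signals, had 45, 38 and 50 in *Ctrl* against 23, 19 and 35 in *Tet iTKO*. Its lines were apart and lower in *Tet iTKO*, and it just missed the threshold (-0.80, limma adjusted p = 0.055). *Yap1*, the partner of TEAD4, was at 0.06.

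Genes of the trophectoderm epithelium moved in 1 direction where they were called. Of 14 such genes, 9 were tested, 5 rose and 0 fell, against 16.4% and 18.4% of all genes tested. The median log2 fold change was 0.26 against 0.01 over all genes tested. *Krt8* and *Krt18*, which encode the keratin pair of simple epithelia, had 17, 9 and 19 and 15, 20 and 12 normalized counts in *Ctrl*, and 83, 105 and 90 and 91, 64 and 92 in *Tet iTKO*. Their log2 fold changes were 2.61 (SE 0.32, limma adjusted p = 3.2e-08) and 2.33 (SE 0.32, limma adjusted p = 2.9e-07). *Cldn7*, *Tjp1* and *Aqp3* were the other 3, of which *Aqp3* missed the threshold without *Ctrl* replicate 2 (limma adjusted p = 0.17) or *Tet iTKO* replicate 1 (limma adjusted p = 0.16). *Krt7*, another keratin gene, at 7, 13 and 2 in *Ctrl* and 5, 2 and 0 in *Tet iTKO*, was not tested.

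Of 20 genes of placental differentiation, 9 were tested, 4 rose and 1 fell, against 16.4% and 18.4% of all genes tested. The median log2 fold change was 0.41. *Gcm1*, the factor that directs syncytiotrophoblast, was at 0, 0 and 3 normalized counts in *Ctrl* against 28, 26 and 17 in *Tet iTKO* (limma adjusted p = 0.00016). Its *Ctrl* lines were all at or under the floor, so no fold is given, and it passed the filter only through the *Tet iTKO* lines. *Peg10*, a paternally expressed gene needed for placenta, had 28, 29 and 23 in *Ctrl* against 69, 56 and 67 in *Tet iTKO* (1.23, limma adjusted p = 0.00083). *Nr6a1* and *Slc2a3* also rose, and neither is limited to placenta. *Rhox6*, a homeobox gene, had 36, 48 and 65 in *Ctrl* against 24, 19 and 36 in *Tet iTKO* (-0.90, limma adjusted p = 0.031). That call was lost in 4 of the 6 fits without a line, those without *Ctrl* replicates 2 (limma adjusted p = 0.069) and 3 (limma adjusted p = 0.17) and *Tet iTKO* replicates 1 (limma adjusted p = 0.075) and 2 (limma adjusted p = 0.14), and with the GC and length correction (-0.59, limma adjusted p = 0.19). Another 8, among them *Tpbpa*, *Prl3d1*, *Prl3b1* and *Plac1*, which define mature placental cells, were at 0 in every line of both groups.

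**Figure D4:**
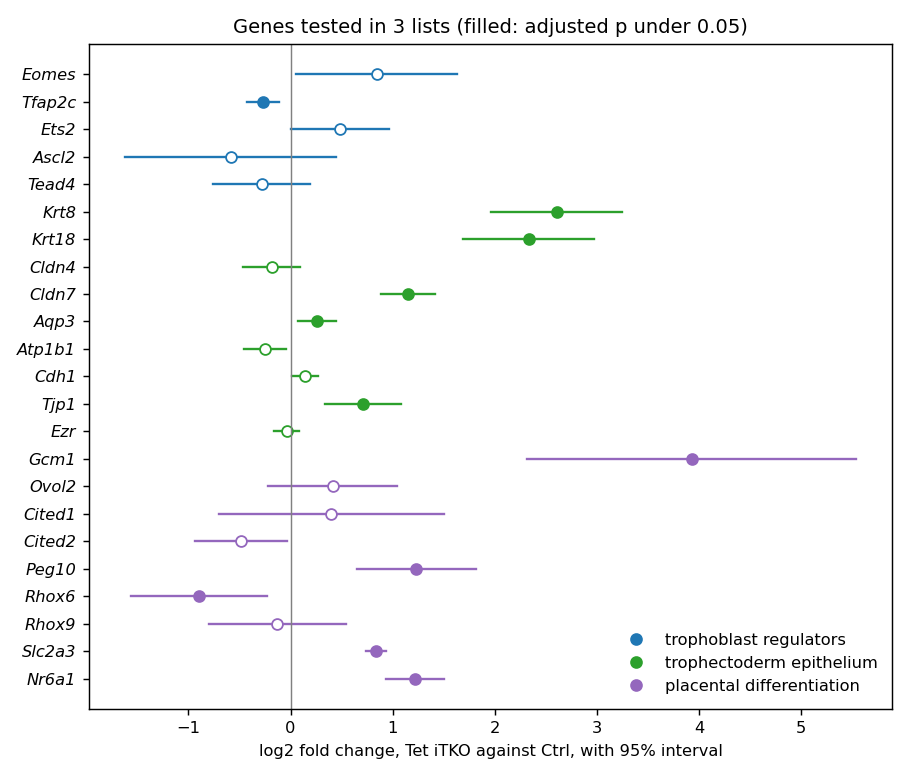
Log2 fold change of *Tet iTKO* against *Ctrl* with its 95% interval for the tested genes of 3 lists, the regulators (blue), trophectoderm epithelium (green) and placental differentiation (purple). Filled points passed an adjusted p under 0.05. *Tfap2c* is the only filled blue point, at -0.27, while *Krt8* (2.61) lies far to the right. The position of *Gcm1* depends on the pseudocount, since its *Ctrl* lines are at or under the floor.

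Of 12 factors of the inner cell mass, all tested, 3 rose and 4 fell, against 16.4% and 18.4% of all genes tested. The median log2 fold change was -0.01. *Nanog* (-0.30, limma adjusted p = 0.00038) and *Zfp42* (-0.35, limma adjusted p = 0.0064) fell most, and *Klf4* (0.32, limma adjusted p = 0.0032) and *Esrrb* (0.28, limma adjusted p = 0.0003) rose most. *Sall4* also rose, and *Pou5f1* (-0.29, limma adjusted p = 5.7e-06) and *Tbx3* also fell. With the GC and length correction the calls of *Nanog* (-0.10, limma adjusted p = 0.27), *Zfp42* (-0.10, limma adjusted p = 0.49), *Klf4* (0.21, limma adjusted p = 0.064) and *Esrrb* (0.06, limma adjusted p = 0.5) were lost and *Sall4* was at -0.009, while *Pou5f1* (-0.19, limma adjusted p = 0.00068), *Tbx3* (-0.49, limma adjusted p = 2.2e-05) and, among the regulators, *Tfap2c* (-0.30, limma adjusted p = 0.0025) kept theirs. With quantile normalization *Pou5f1* was at -0.08 (limma adjusted p = 0.2) and *Tbx3* at -0.15 (limma adjusted p = 0.17). When eBayes was run without its trend, none of the calls on inner cell mass factors held (limma adjusted p = 0.057 to 0.17). Without *Tet iTKO* replicate 2, *Zfp42* was at -0.23 (limma adjusted p = 0.11), and of the 6 fits without a line *Tbx3* passed in those without *Ctrl* replicate 2 or *Tet iTKO* replicate 1.

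*Eomes*, *Hand1*, *Cdx2* and *Gata2* also act in primitive streak and mesoderm, and the summed markers of that lineage were higher in *Tet iTKO* lines. Their summed level was 13 to 31 in *Ctrl* and 75 to 90 in *Tet iTKO*, and of 13 such genes only *T*, the streak T-box gene, passed the filter, through its *Tet iTKO* lines alone, with 0, 12 and 1 in *Ctrl* and 24, 26 and 24 in *Tet iTKO* (log2 fold change 3.11, limma adjusted p = 0.00097, and 0.061 when eBayes was run without its trend). That log2 fold change was 2.33 to 4.18 as each line was left out, and 3.58 and 2.07 with pseudocounts of 0.5 and 4. *Fgf8* (13, 10 and 7 in *Tet iTKO*) and *Wnt3* (11, 9 and 10) were at 0 in every *Ctrl* line, while *Mesp1* and *Msgn1* were at 0 in all 6. The part of these markers in the values of *Eomes*, *Hand1* and *Cdx2* was not tested.

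Markers of other cells that the sort could hold also moved. The 14 genes of primitive endoderm summed to 122 to 140 in *Ctrl* and 304 to 331 in *Tet iTKO*. Of 6 tested 4 rose, *Col4a2*, *Col4a1*, *Gata4* and *Lamb1*, against 16.4% of all genes tested. *Col4a2* (4, 10 and 8 in *Ctrl* against 44, 41 and 43 in *Tet iTKO*) and *Gata4* passed the filter only through their *Tet iTKO* lines. The collagens and *Lamb1* encode basement membrane proteins, and they made up most of the sum in every line. *Sox7*, an endoderm factor, was at 17, 24 and 7 in *Ctrl* against 2, 9 and 9 in *Tet iTKO* (-1.20, limma adjusted p = 0.15). It passed the filter only through its *Ctrl* lines. The defining genes *Sox17* (0 to 4), *Foxa2* (0 to 2), *Pdgfra* (0 to 9) and *Gata6* (0 to 5) were near 0 over all lines. The 13 genes of feeder fibroblasts summed to 303 to 316 in *Ctrl* and 532 to 601 in *Tet iTKO*. Of 5 tested 3 rose, *Col3a1*, *Col1a2* and *Col1a1*, against 16.4% of all genes tested. These collagens made up most of the sum in every line. *Thy1*, the marker used to remove the feeder cells, had 30, 46 and 41 in *Ctrl* against 47, 35 and 23 in *Tet iTKO* (-0.19, limma adjusted p = 0.69), and *Postn* was at 0 to 3. Of the other genes not tested, *Dcn*, *Lum*, *Pdgfrb* and *Prrx1* had lower means in *Tet iTKO*, and *Col6a1*, *Fbn1* and *Twist1* higher ones. The part of these cells in the rises of the keratin, placental and relative genes was not tested.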

How the data were processed

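RNA of 3 *Ctrl* and 3 *Tet iTKO* mESC lines was sequenced by the authors as paired reads of 50 bases, aligned with STAR keeping unique alignments, counted per gene with HT-Seq (0.7.1 in the submitters' processing notes, which also name DESeq2 1.26.0, R 3.5.2 and mm9) and divided by DESeq2 size factors. These normalized counts were rounded to whole numbers before they were deposited, so they are treated as a score and not as read counts. The size factors and the reads behind a value are not given in the sources used here, so the floor of 3 normalized counts covers counting error only. Without molecular identifiers, reads copied by PCR are not separate molecules. For this counting the paper gives the stranded setting of HT-Seq (-s yes), and its effect on the values was not tested. Smart-Seq2 does not keep the strand, so reads of a gene and its antisense partner cannot be told apart. Of the antisense genes that the annotation gives, Gm13256 at *Gata3*, Gm33460 at *Eomes* and Gm21893 at *Tead4* were not analysed here. Symbols, lengths and coordinates came from GENCODE M21 (GRCm38), which matched 20775 of 22380 identifiers, the other 1605 having none.

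Linear models of log2(normalized count + 1) were fitted with limma 3.58.1 (lmFit, eBayes with a trend, R 4.3.3) to the 10524 genes whose mean was 10 or more, two-sided, with Benjamini-Hochberg adjustment over all of them. A fold change on this scale understates that of low genes. No count model was used, since the values are not counts. The fit was checked on simulated data. Tables and plots used pandas 2.3.3, SciPy 1.17.1, NumPy 2.4.6 and matplotlib 3.10.9 under Python 3.11.15. The 10 regulators and the other lists were chosen with earlier results of these data known, so their counts are descriptions, and no set test was run. Named were all 10 regulators, of each other list the 2 largest rises and 2 largest falls among called genes, the 3 genes most like the most abundant regulator, and the few other genes named were picked after their values were seen.

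Same-numbered lines came from different embryos, and their deviations from the group means correlated at 0.019, 0.003 and 0.002, so the main design holds no replicate block. Alternatives were pseudocounts of 0.5 and 4, no filter, a mean of at least 50, trimmed means of M values, quantile normalization, no trend, a replicate block, a loess correction (span 0.3) for GC content and length alone and with the block, each line left out, a log2 fold threshold of 1, and the correction by least squares, chosen after seeing the data.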

Additional observations from a re-analysis of the deposited data

How the results depend on the processing

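Of the 10 regulators, the count that rose was 0 in the design reported and 2 without a filter on low values (*Cdx2* and *Hand1*), and 0 to 1 as each line was left out, with *Ets2* called without *Ctrl* replicate 1 and *Eomes* without *Ctrl* replicate 2. The count that fell was 1 and became 0 with quantile normalization, 0 without the trend of variance and 0 where a log2 change of at least 1 either way was asked, and 2 with the GC and length correction by least squares (*Tfap2c* and *Tead4*). With a mean of at least 50, *Eomes*, *Ascl2*, *Gata4*, *Gcm1* and *Rhox6* among others could not be tested. Over all genes tested, 1731 rose and 1934 fell, which became 1075 and 1217 without the trend, and 1014 rose and 2068 fell with the least-squares correction, where 32.9% of calls were higher against 47.2%. The calls of *Nodal*, *Gata4*, *Rhox6*, *Aqp3* and *Tead2* were also lost without the trend (limma adjusted p = 0.076 to 0.29). Without each line 1335 to 1635 rose and 1642 to 1722 fell. With a replicate block, 1762 rose and 1980 fell, *Tfap2c* was at -0.27 (limma adjusted p = 0.005), and the regulators gave 0 higher and 1 lower, so that no call on them changed. *Tead2* turned to -0.11 with the GC and length correction, with or without the block, and to -0.24 by least squares. *Sall4* turned to -0.009, -0.009 and -0.11 in the same 3 fits, and *Esrrb* to -0.045 by least squares. The cause of these shifts was not tested. A difference in *Elf5*, *Cdx2*, *Hand1*, *Gata2* or *Gata3* is limited by values near the floor.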
